A study of Mus musculus with 6 samples.

Results

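The genes described here are 8 that liver uses to take up glucose and to store and release it as glycogen: Slc2a2, Gckr, Pklr, Ugp2, Gys2, Gbe1, Pygl and Phka2. They were chosen by name, with earlier results of these data known. Every probe set that the platform annotation gives to one of them was used. This gave 16 probe sets, 15 on the 430A design and 1 on the 430B design, for 8 of the 18193 genes that could be represented. The arrays are Affymetrix mouse arrays hybridised with liver RNA, 1 of each of the 2 designs for each of 3 genotypes, so no genotype had a replicate. LT mice carried ApoErtTA:TRE2-TAg and were induced to make SV40 large T antigen, a protein that binds retinoblastoma family members and p53, together with small t. 17kT mice carried ApoErtTA and a TRE2 transgene and made, once induced, 17kT, a shorter product that keeps the retinoblastoma binding motif and lacks the p53 binding part, also together with small t. WT mice carried no transgene. All were B6SJL hybrid males aged 32 to 37 days that drank 25 µg/ml doxycycline with 2.5% sucrose for 4 days, so the sugar in the water was the same in every group. Because WT lacked ApoErtTA as well, its effect cannot be told apart from that of the viral proteins, and the share of small t in either transgenic liver cannot be told apart from that of LT or 17kT. The labels do not say whether each RNA was from a single mouse or from pooled mice. ApoErtTA is, by its name, the doxycycline-dependent activator rtTA under control of apolipoprotein E sequences, which are active in hepatocytes, so other liver cell types need not make the viral proteins.

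Glucose enters and leaves the hepatocyte through GLUT2, the transporter encoded by Slc2a2. Glucokinase then phosphorylates it, and the regulatory protein encoded by Gckr holds glucokinase inactive in the nucleus when glucose is low. Carbon that is not stored runs through glycolysis to liver pyruvate kinase, the product of Pklr, a gene that responds to carbohydrate feeding. For storage, UDP-glucose made by the product of Ugp2 is added to glycogen by liver glycogen synthase (Gys2) and branched by the enzyme of Gbe1. Liver glycogen phosphorylase (Pygl) breaks the store down again when phosphorylase kinase, whose liver alpha subunit comes from Phka2, has activated it.

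The promoter of Pklr is shown first because it carries letters that match the carbohydrate response element. Of the 8 genes, 7 had at least 1 entry in a RefSeq table of promoter windows (GRCm38.p6, 250 bases before to 50 after a start), 9 windows in all; Gys2 is named only. Pklr has an upstream start used in red cell precursors and a downstream start used in liver. The downstream window, the upstream window, and the windows of Slc2a2 and Pygl, which head the results below, read 5′ to 3′ as follows, with motif matches in capitals.
Pklr, downstream (liver) start, chr3:89136373-89136672 (+ strand, GRCm38.p6): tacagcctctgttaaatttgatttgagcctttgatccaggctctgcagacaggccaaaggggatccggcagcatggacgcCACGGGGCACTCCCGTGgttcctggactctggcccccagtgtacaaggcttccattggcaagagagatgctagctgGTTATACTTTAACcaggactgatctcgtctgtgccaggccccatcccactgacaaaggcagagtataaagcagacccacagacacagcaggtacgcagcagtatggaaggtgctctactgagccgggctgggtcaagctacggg
Pklr, upstream start, chr3:89135892-89136191 (+ strand, GRCm38.p6): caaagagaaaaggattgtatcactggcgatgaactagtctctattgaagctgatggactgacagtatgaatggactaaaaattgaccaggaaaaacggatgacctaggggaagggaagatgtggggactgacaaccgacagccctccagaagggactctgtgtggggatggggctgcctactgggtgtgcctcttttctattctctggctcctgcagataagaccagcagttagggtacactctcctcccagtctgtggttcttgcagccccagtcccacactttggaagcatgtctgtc
Slc2a2, chr3:28697653-28697952 (+ strand, GRCm38.p6): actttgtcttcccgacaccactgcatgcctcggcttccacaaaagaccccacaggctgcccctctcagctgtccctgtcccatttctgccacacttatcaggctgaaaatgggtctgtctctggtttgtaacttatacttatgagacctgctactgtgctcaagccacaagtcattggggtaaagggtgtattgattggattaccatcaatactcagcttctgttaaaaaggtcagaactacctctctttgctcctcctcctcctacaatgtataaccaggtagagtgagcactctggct
Pygl, chr12:70227634-70227933 (- strand, GRCm38.p6): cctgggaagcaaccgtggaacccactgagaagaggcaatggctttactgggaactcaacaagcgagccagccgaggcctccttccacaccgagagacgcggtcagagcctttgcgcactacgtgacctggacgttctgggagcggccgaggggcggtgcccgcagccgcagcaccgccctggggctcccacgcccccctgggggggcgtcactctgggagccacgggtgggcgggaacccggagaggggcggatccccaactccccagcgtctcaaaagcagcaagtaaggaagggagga

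A carbohydrate response element was searched on both strands as CACGNG, any 5 bases, then CNCGTG, and was found in the downstream Pklr window, at bases -170 to -154 from the start. Of all 32851 windows in the table, 0.0457% held a match. A match to the HNF1 site, searched as GTTA, any 5 bases, then TAAC, lay at bases -94 to -82 of the same window, and 0.332% of all windows held one. The E-box CACGTG (7.15% of windows) and the E2F site, searched as TTTCCCGC, TTTCGCGC, TTTGCCGC or TTTGGCGC (2.26% of windows), were not found in any of the 9 windows. These motifs were chosen after the sequences had been seen, and a match describes letters only. The arrays did not measure which Pklr start was used.

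Within a design the arrays were brought to the same trimmed mean, and values under the median signal of all probe sets (90.4 for 430A, 140.5 for 430B) were set to that floor. A difference was called at 2-fold or more, that is 1 or more on the log2 scale. No test is possible with 1 array per genotype. The only errors available are technical. For the 100 probe sets that both designs carry, the log2 ratio on 430A was set against that on 430B. The SD of 1 ratio, from these differences, was 0.23 in LT against WT, 0.28 in 17kT against WT and 0.26 in LT against 17kT. This SD leaves out a shift between the designs, with medians (430A minus 430B) of -0.25, 0.19 and -0.36. Between probe sets of 1 gene the SD was 0.54, 0.51 and 0.45 in these 3 comparisons. Both comparisons with WT use the same WT array, so a chance deviation of that array enters both.

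**Figure D1:**
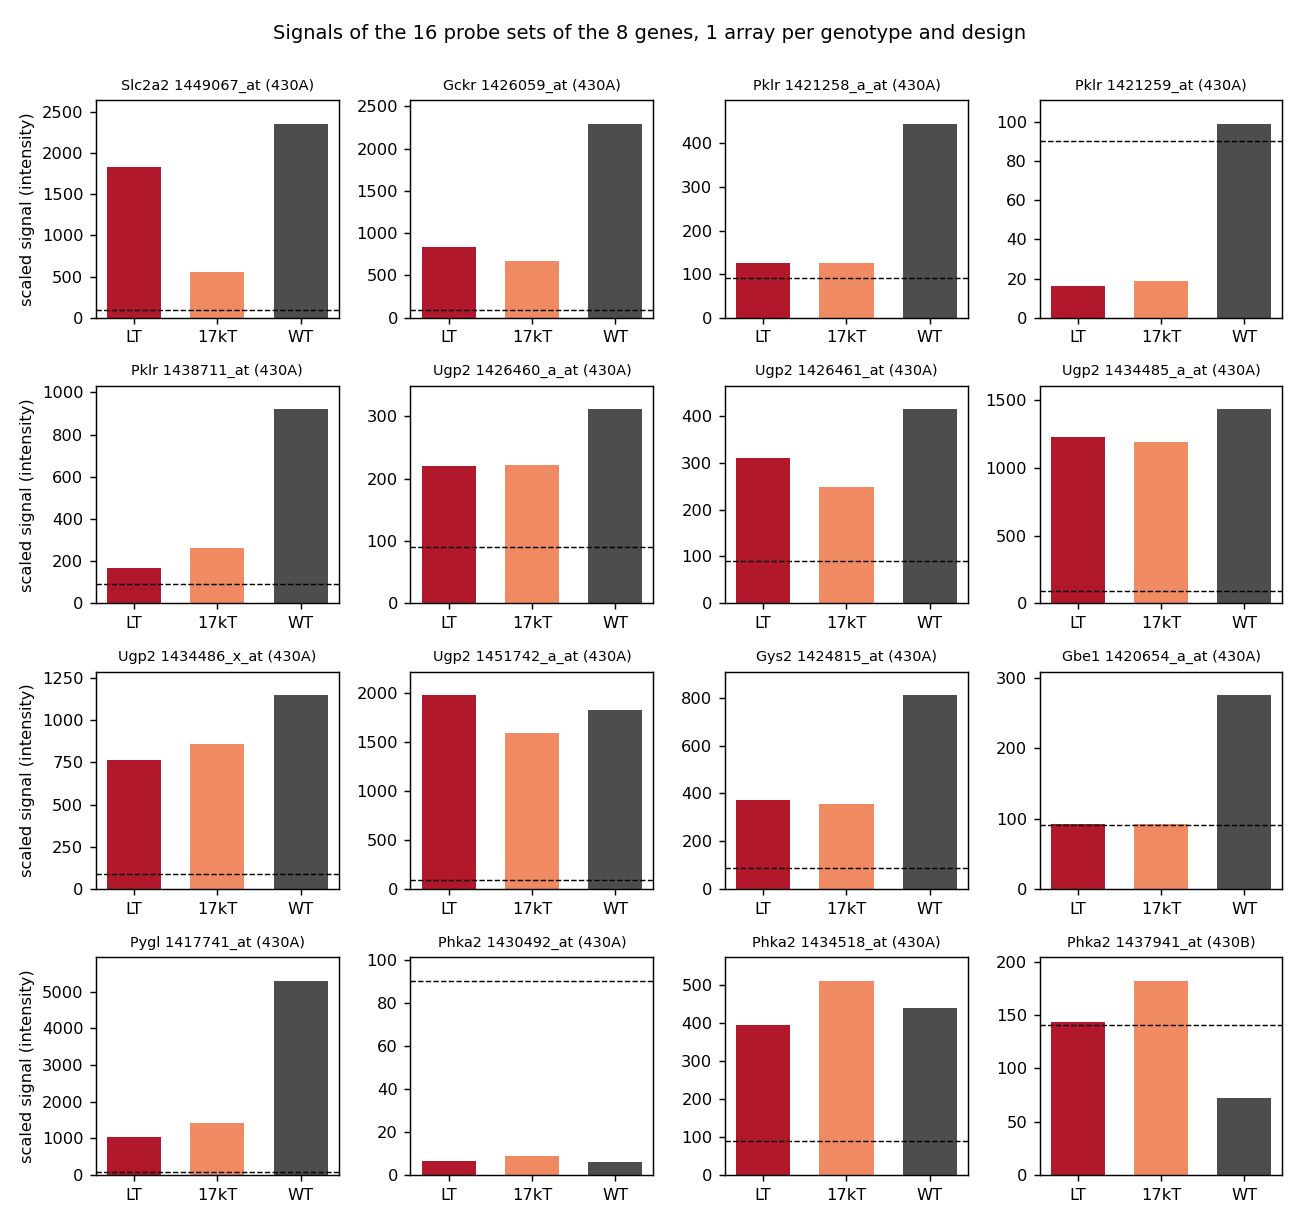
Scaled signal (intensity, linear axis from 0) of each of the 16 probe sets on the LT, 17kT and WT arrays, 1 bar per array with no replicate, and the floor of the design as a dashed line. WT is the highest bar for Pygl, Gckr, Gys2, Gbe1, Slc2a2, the 3 Pklr probe sets and 4 of the 5 Ugp2 probe sets. Slc2a2 has its LT bar at 1831 near WT at 2361 and its 17kT bar at 554.

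In LT liver 5 of the 8 genes were lower than in WT liver and 0 were higher, against a background of 9.01% of 12775 measured genes lower and 11.1% higher. In 17kT liver 6 of the 8 were lower than in WT and 0 were higher, against 8.64% of 12992 lower and 9.97% higher. Because the 8 were chosen with earlier results of these data known, these counts are a description and no test of an excess. Pygl, Pklr, Gbe1, Gckr and Gys2 passed the rule of size in each comparison, Slc2a2 in 17kT liver alone, and Ugp2 and Phka2 in neither. The median log2 ratio of the 8 was -1.30 in LT and -1.68 in 17kT, where the median of all measured genes was 0.02 and 0.07. Counted by probe set, 6 of 15 measured were lower in LT and 7 of 15 in 17kT, with 0 higher in either. On 430A as a whole 7.96% and 7.77% of measured probe sets were lower, and 10.8% were higher in each comparison.

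**Figure D2:**
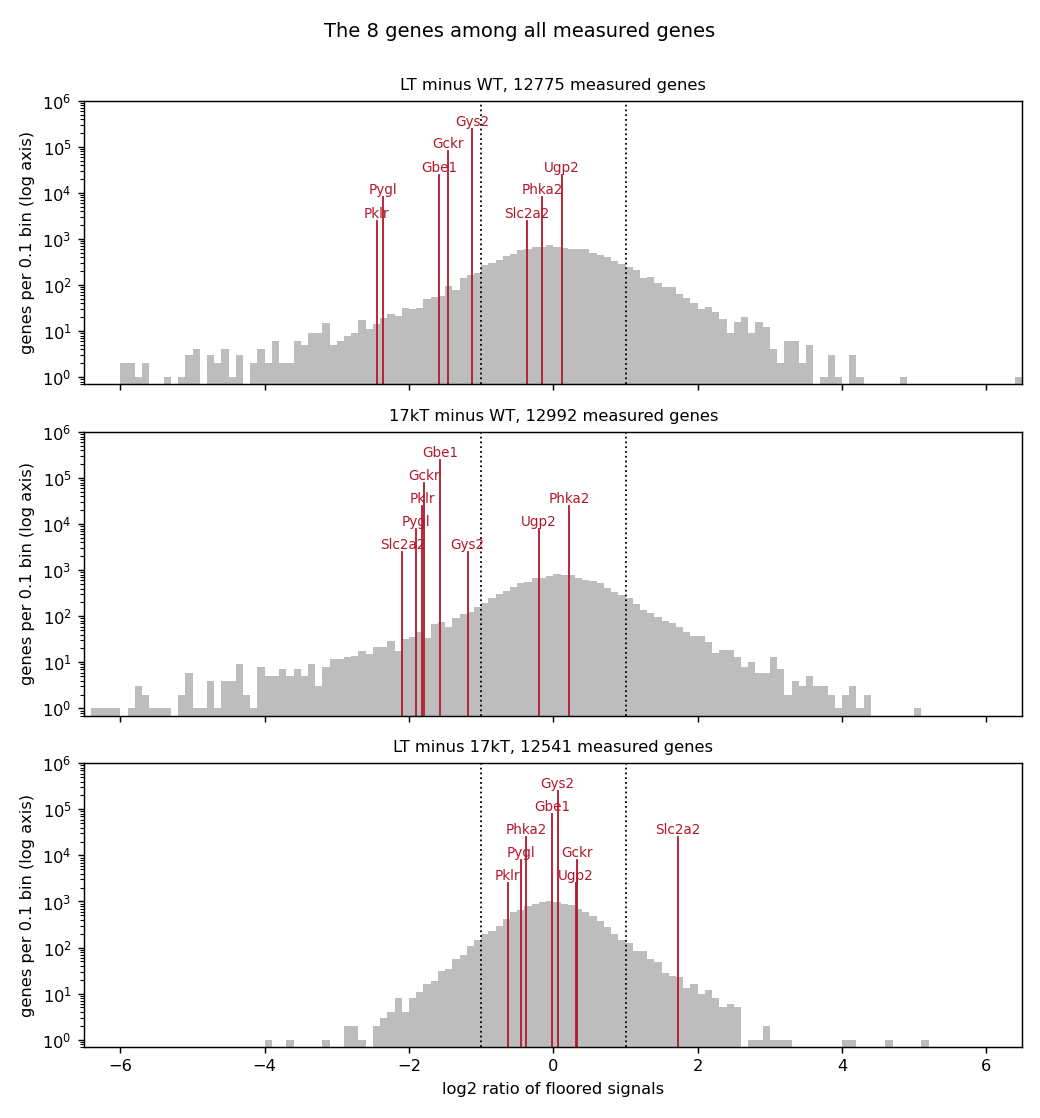
Log2 ratios (x axis) of all measured genes as grey bars (genes per bin, log axis) in the 3 comparisons, with a red line for each of the 8 genes and dotted lines at 2-fold. The lines of 5 genes in LT against WT and 6 in 17kT against WT lie left of the lower dotted line, and Slc2a2 lies right of the upper line in LT against 17kT.

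The transporter gene Slc2a2 set the 2 transgenic livers apart. Its probe set 1449067_at read 1831 in LT, 554 in 17kT and 2361 in WT liver. LT was near WT and 17kT was far below both. The 17kT signal was 4.26-fold lower than WT (log2 ratio -2.09), and 2.22% of measured genes had a lower ratio. The LT signal was 1.29-fold lower than WT (log2 -0.37, and 0.24 when arrays were scaled to the hybridisation controls), which is less than the 0.54 SD between probe sets of 1 gene. LT exceeded 17kT 3.30-fold (log2 1.72, from 1.56 to 1.89 under 6 scalings), more than the 0.45 SD between probe sets, and 99.2% of 12541 measured genes had a lower ratio. Slc2a2 was the 1 member higher in LT than in 17kT, where the background was 4.47% of genes higher and 4.23% lower, and 0 members were lower. By probe set it was 1 of 14 measured, where 2.32% of 430A probe sets were higher and 2.46% lower. It has 1 probe set, so no second probe set bears on this value.

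Gckr, the inhibitor of glucokinase, read 833 in LT, 666 in 17kT and 2296 in WT with 1426059_at. Both transgenic livers lay far below WT and close to each other. The gene was 2.76-fold lower in LT and 3.45-fold lower in 17kT than in WT. When arrays were scaled to the hybridisation controls, the decrease in LT fell short of 2-fold (log2 -0.86).

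Pklr, the pyruvate kinase gene whose promoter is printed above, has 3 probe sets. The brightest, 1438711_at, read 168 in LT, 261 in 17kT and 919 in WT, which is 5.47-fold and 3.52-fold lower than WT. Of all measured genes, 1.19% had a lower ratio in LT and 2.95% in 17kT. The probe set 1421258_a_at gave 126 in LT, 126 in 17kT and 445 in WT, 3.52-fold and 3.54-fold lower. The third, 1421259_at, was under the floor in LT (16.2) and 17kT (18.7) and just above it in WT (99.2), so it gave a bound of at least 1.10-fold lower in each. With the floor at the 25th percentile LT and 17kT were still under it, and the bound was a log2 ratio of -1.88 or lower in each. All 3 probe sets were thus highest in WT, and 2 of 3 passed the rule of size.

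Pklr is also active in red cell precursors, and 1 of the 4 erythroid genes on the arrays was measured. Alas2, the erythroid first enzyme of heme synthesis, read 124 in LT, 141 in 17kT and 1742 in WT, 14.0-fold and 12.4-fold lower. The other 3, Hba-a1, Slc4a1 and Epb42, were below the floor on every array. The summed signal of the 4 was 208 in LT, 253 in 17kT and 1879 in WT. The part of red cell precursors in the Pklr difference was not tested.

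Ugp2, whose enzyme makes the UDP-glucose that glycogen synthase uses, did not pass the rule of size in any comparison. Its 5 probe sets averaged a log2 ratio of -0.32 ± 0.28 in LT and -0.42 ± 0.21 in 17kT against WT (SD over 5 probe sets of the same RNA, a technical spread). The brightest, 1451742_a_at, read 1974 in LT, 1587 in 17kT and 1819 in WT. The largest drop was in 1426461_at, with 309 in LT, 248 in 17kT and 413 in WT (1.67-fold lower in 17kT). No probe set reached 2-fold, and 4 of 5 in LT and 5 of 5 in 17kT were below WT. Under the hybridisation control scaling all of these ratios turned positive, so Ugp2 has no direction that holds across scalings.

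The synthase gene Gys2 read 371 in LT, 356 in 17kT and 811 in WT with 1424815_at. The transgenic livers were alike, and WT lay above both. Gys2 was 2.19-fold lower in LT and 2.28-fold lower in 17kT, near the 2-fold line. It fell short of 2-fold when scaled to the hybridisation controls (log2 -0.52 in LT and -0.42 in 17kT).

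Gbe1, the branching enzyme gene, read 91.9 in LT, 93.1 in 17kT and 275 in WT with 1420654_a_at. Both transgenic values lay just over the floor of 90.4, so the 3.0-fold and 2.96-fold lower signals are close to the most this floor allows. Under the hybridisation control scaling the log2 ratios were -0.98 and -0.80, short of the rule of size. With a floor at the 75th percentile Gbe1 was not measured.

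Pygl, the phosphorylase gene, read 1033 in LT, 1414 in 17kT and 5299 in WT with 1417741_at. WT was far above both. Pygl was 5.13-fold lower in LT and 3.75-fold lower in 17kT, and 1.31% and 2.70% of measured genes had a lower ratio. It passed the rule of size under all 6 scalings, with log2 ratios from -2.61 to -1.75 in LT and from -2.18 to -1.14 in 17kT. LT was 1.37-fold below 17kT (log2 -0.453), about the size of the SD between probe sets (0.448).

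Phka2, the liver alpha subunit of phosphorylase kinase, did not follow the phosphorylase gene. With 1434518_at it read 395 in LT, 511 in 17kT and 440 in WT, so that LT and 17kT stood on opposite sides of WT, at log2 ratios of -0.16 and 0.22. Its direction turned with scaling, over log2 ratios from -0.41 to 0.45 in LT and from -0.05 to 0.98 in 17kT. The 430B probe set 1437941_at read 144 in LT, 182 in 17kT and 71.8 in WT, the last below its floor, which gives bounds of at least 1.02-fold and at least 1.30-fold higher. With the floor at the 25th percentile those log2 ratios were 1.0 and 1.34. The third probe set, 1430492_at, was below the floor on all 3 arrays, with 6.70 in LT, 8.99 in 17kT and 6.20 in WT.

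**Figure D3:**
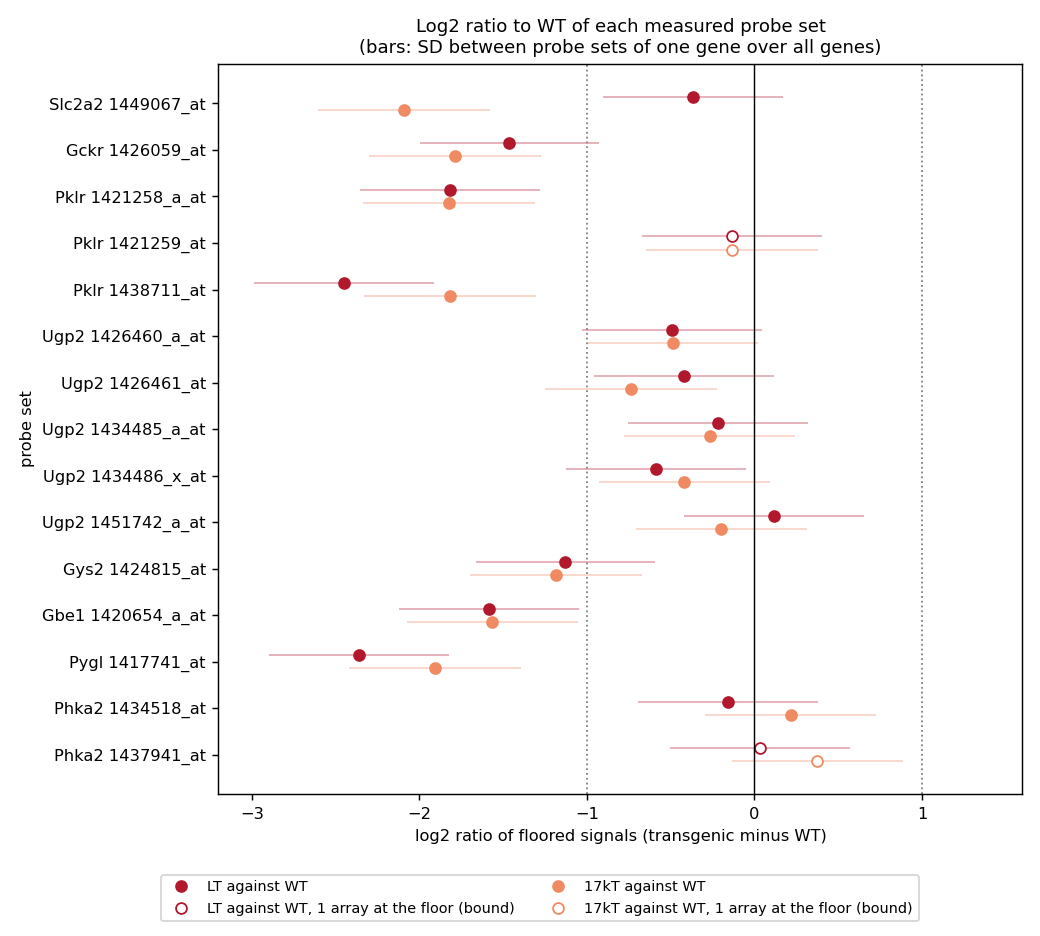
Log2 ratio to WT (x axis) of the 15 measured probe sets, LT above 17kT in each row, open symbols where 1 array was at the floor and the value is a bound; bars are the SD between probe sets of 1 gene over all genes (0.54 for LT, 0.51 for 17kT), and dotted lines mark 2-fold. Filled symbols left of -1 belong to Gckr, Pklr, Gys2, Gbe1 and Pygl, and for 17kT to Slc2a2 as well.

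Hepatocyte markers lay below WT by less than the members, in a direction that depended on scaling. All 12 markers named on the arrays, Alb and Ttr among them, were above the floor on every array, and with the trimmed mean scaling all 12 had negative log2 ratios in each comparison with WT. Their median was -0.47 in LT and -0.71 in 17kT, against 0.07 and 0.05 under the hybridisation controls and -0.09 and 0.06 after quantile normalization. With the trimmed mean scaling 1 of the 12 was lower by 2-fold or more in LT and 4 in 17kT, and 0 were higher. Of all measured genes 9.01% were lower in LT and 8.64% in 17kT. The summed 430A signal of the hepatocyte markers was 145252 in LT, 119339 in 17kT and 203533 in WT. Among other cell types, 10 endothelial markers had medians of -0.57 in LT and -0.51 in 17kT, 10 macrophage markers of -0.19 and 0.18, and 9 measured stellate and matrix markers of -0.45 and -0.24. Past 2-fold were 3 endothelial markers lower in LT, and 2 lower and 1 higher in 17kT. Of the stellate and matrix markers 1 was lower in each comparison, and 1 macrophage marker was lower in 17kT. The 5 neutrophil markers measured in LT had a median of 0.62, and the 3 in 17kT one of 0.19. S100a8 among them was at least 2.53-fold higher in LT. Of 6 bile duct and progenitor markers on the arrays, the probe sets standing for 4 (Krt19, Krt7, Epcam and Sox9) were at the floor on all 3 arrays. A second probe set of Epcam gave log2 ratios of floored signals of 0.17 in LT and -0.97 in 17kT. The 2 measured in LT, Prom1 and Cd24a, were at least 6.09-fold and at least 6.03-fold higher there, though 2 other probe sets of Cd24a gave log2 bounds of 0.29 and 1.66. The 2 measured pancreas acinar markers had medians of -1.90 and -1.35, and Cela1 among them was 7.28-fold lower in LT and 5.51-fold lower in 17kT. Among the B cell and adipose markers Ighm (log2 -1.33 and -1.56) and Fabp4 (-1.03 and -1.22) passed 2-fold, but their other probe sets did not. Those of Ighm ran from -0.79 to 0.10 in LT and from -0.79 to -0.11 in 17kT. That of Fabp4 gave -0.46 in LT and -0.49 in 17kT. The medians of the measured B cell and adipose markers were -0.40 and -0.25, and -0.47 and -0.67. The part of these shifts in the members' differences was not tested. In bulk RNA, fewer hepatocytes and less RNA of these genes per hepatocyte cannot be told apart. When each array was scaled to the 430A markers of the hepatocyte list, a choice made after seeing the data, 4 of 8 members were still lower in LT and 4 of 8 in 17kT, with medians of -0.90 and -0.96. Of all measured genes 4.75% were then lower and 21.2% higher in LT, and 3.49% lower and 32.9% higher in 17kT. Gys2 in both livers and Gbe1 in 17kT then missed 2-fold. Of the array controls for RNA integrity, Gapdh on 430A gave a 3′ to 5′ signal ratio of 3.08 in LT, 3.53 in 17kT and 5.81 in WT, and Actb one of 2.52 in LT, 2.13 in 17kT and 2.57 in WT. The Gapdh ratio was thus highest in WT while the Actb ratio was alike in LT and WT, and their part in these results was not tested. Fluidics station 2 handled both LT arrays and station 1 the rest, which cannot be told apart from the LT genotype. The deposited 17kT signals carry more decimals (554.237 for Slc2a2) than those of LT (1831.3) and WT (2360.9). Any separate processing of the 17kT arrays cannot be told apart from the 17kT genotype.

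The size of the members' differences also depended on scaling. Scaling to the hybridisation controls moved the median of all genes to 0.36 in LT and 0.35 in 17kT, and scaling on the 100 probe sets of both designs moved it to -0.27 and -0.10. Measured from the all-gene median, the members' median log2 ratio lay at -1.32 in LT and -1.75 in 17kT, and under the hybridisation controls at -1.05 and -1.26. Under that scaling 2 of 8 members, Pklr and Pygl, were lower in LT, and 4 of 8 in 17kT. There 6.505% of all measured genes were lower and 22.1% higher in LT, and 7.03% lower and 23.8% higher in 17kT.

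**Figure D4:**
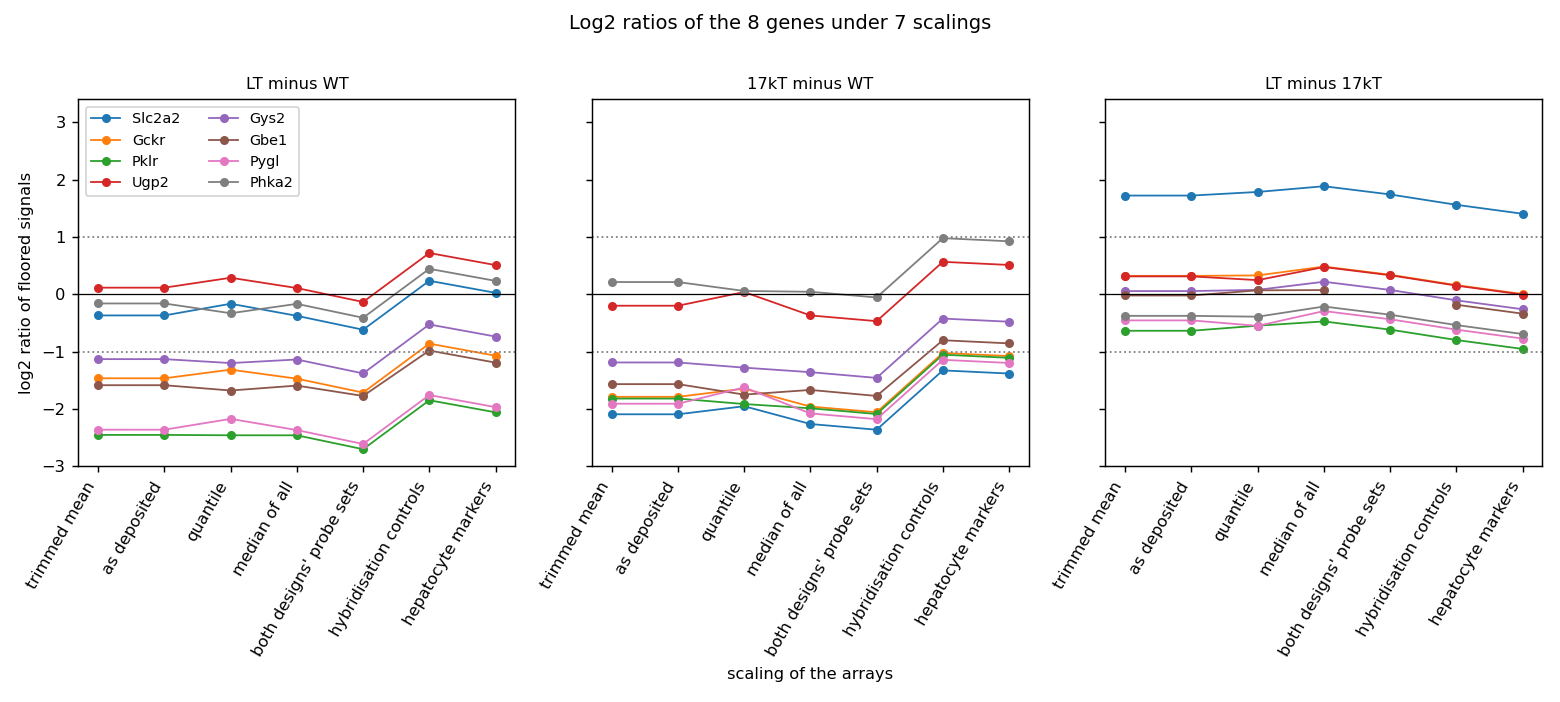
Log2 ratio (y axis) of the probe set that stands for each of the 8 genes under 7 ways of scaling the arrays (x axis), 1 line per gene, dotted lines at 2-fold. Hybridisation controls and hepatocyte markers lift the lines against WT, Pklr and Pygl stay below -1 in both comparisons with WT, and Slc2a2 stays above 1 in LT against 17kT. A line breaks where the probe set was not measured.

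Other genes of glucose and glycogen handling, 86 genes in 7 lists, did not share a common direction. Of 72 measured in LT against WT, 5 were higher and 7 lower, with a median log2 ratio of -0.01. These are 6.94% and 9.72% of them, against 11.1% and 9.01% of all genes. Of 73 measured in 17kT against WT, 6 were higher and 10 lower, with a median of 0.10. These are 8.22% and 13.7%, against 9.97% and 8.64% of all genes. Which list genes passed 2-fold depended on scaling. Of those in LT, 3 of 7 lower (Gcgr, Khk, Tkfc) and 1 of 5 higher (Gyg) passed under all 6 scalings. In 17kT, 4 of 10 lower (Gcgr, Khk, Cebpa, Ppp1r3b) and 0 of 6 higher did so. Under the hybridisation controls 18 list genes were higher in LT and 18 in 17kT, where 22.1% and 23.8% of all measured genes were higher. No list gene that passed turned its sign under any of the 6. The values below are those of the trimmed mean scaling. There 9.01% of all genes were lower and 11.1% higher in LT, and 8.64% and 9.97% in 17kT, the shares for the counts of each list.

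Among 14 measured glycogen synthesis genes, 3 were higher and 2 lower in LT, and 4 higher and 2 lower in 17kT, with medians of 0.22 and 0.29. Both lower genes encode subunits that bring protein phosphatase 1 to glycogen, where it activates the synthase. Ppp1r3c read 631 in LT, 607 in 17kT and 1896 in WT, 3.0-fold and 3.12-fold lower, though a second probe set gave only a bound of -0.60 on the log2 scale. Ppp1r3b read 3444 in LT, 2195 in 17kT and 7112 in WT, 2.06-fold and 3.24-fold lower. Of 3 catalytic subunits of the same phosphatase, Ppp1ca, Ppp1cb and Ppp1cc were 2.13-fold, 2.21-fold and 2.12-fold higher in 17kT and had log2 ratios of 0.96, 0.75 and 0.82 in LT. Other probe sets of Ppp1cb gave 0.58 and 0.94 in 17kT and 0.16 in LT, and that of Ppp1cc gave 1.003 in 17kT and 0.88 in LT. Gyg, the glycogenin gene that primes new glycogen, read 1566 in LT, 758 in 17kT and 457 in WT. It was 3.43-fold higher in LT, and its second probe set gave a log2 ratio of 0.70. Ppp1r3e, another targeting subunit, was at least 2.04-fold higher in LT, where its second probe set gave a log2 ratio of 0.49. The phosphoglucomutase genes parted: Pgm2 was 2.05-fold higher in LT and 2.04-fold in 17kT, while Pgm1 had log2 ratios of -0.98 and -0.95 on 430A and of 0.89 and 0.86 on 430B, so its direction is unsettled. Gys1, the muscle synthase, was below the floor on all 3 arrays.

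Of 11 measured glycogen breakdown genes, 1 was higher and 0 lower in each comparison, with medians of -0.22 in LT and 0.09 in 17kT. In LT it was Pygb, the brain form of phosphorylase, which read 592 in LT, 349 in 17kT and 265 in WT and was 2.23-fold higher in LT. Pygl and Pygb thus went opposite ways in LT liver. In 17kT it was Gaa, the lysosomal glucosidase, 2.17-fold higher, with a second probe set at 0.43 on the log2 scale. Of the other phosphorylase kinase subunits, Phkg2 had log2 ratios of -0.34 in LT and -0.51 in 17kT. Phkb was under the floor in both transgenic livers and so gave only a log2 bound, of -0.21 or lower. Phkg1 was below the floor on all 3 arrays and was not measured.

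Genes for glucose release and sugar use outside glycogen had a few large decreases. Of 8 measured phosphorylation and release genes, G6pc, the glucose-6-phosphatase gene, read 2523 in LT, 2076 in 17kT and 6025 in WT and was 2.39-fold and 2.90-fold lower. Its transporter partner Slc37a4 was 2.07-fold lower in 17kT and had a log2 ratio of -0.96 in LT. Of 8 measured glycolysis and fructose genes, 2 were lower in each comparison, and both belong to fructose use. Khk, which phosphorylates fructose, read 857 in LT, 644 in 17kT and 3553 in WT, 4.15-fold and 5.52-fold lower. Tkfc, which acts further along that route, was 3.92-fold and 3.12-fold lower. Pkm, the pyruvate kinase gene of most other tissues, read 439 in LT, 457 in 17kT and 217 in WT, so it was 2.02-fold and 2.11-fold higher where Pklr was lower. By the probe set that stood for each gene, no other sugar transporter passed the rule of size, with 4 measured in LT and 6 in 17kT. A second probe set of the transporter gene Slc2a9 was higher in 17kT, with a lower bound of 1.20 on the log2 scale, where the first gave 0.23. Slc2a1, of the GLUT1 transporter, had log2 ratios of -0.33 in LT and -0.47 in 17kT, where its other 2 probe sets gave 0.26 and 0.38 in LT and 0.55 and 0.57 in 17kT. Among 7 UDP-sugar genes, Galt, of galactose breakdown, was 2.04-fold lower in 17kT and the other 6 were within 2-fold, as were all 7 in LT.

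Among genes that control glucose use, 2 of 20 measured were lower in LT, 3 of 19 in 17kT and 0 higher in either. Of all measured genes 9.01% were lower and 11.1% higher in LT, and 8.64% lower and 9.97% higher in 17kT. Gcgr, the glucagon receptor gene, read 418 in LT, 121 in 17kT and 1655 in WT, 3.96-fold and 13.7-fold lower. Its 17kT signal lay near the floor, and with the floor at the 75th percentile that log2 ratio was -2.57 in place of -3.78. Cebpa, a hepatocyte transcription factor gene, read 1221 in LT, 538 in 17kT and 2244 in WT, with a log2 ratio of -0.88 in LT and 4.17-fold lower in 17kT. Srebf1, which drives lipogenic genes under insulin, was 2.31-fold lower in 17kT and had a log2 ratio of -0.61 in LT. Mlxipl, whose product ChREBP binds carbohydrate response elements, read 1790 in LT, 1895 in 17kT and 3624 in WT, 2.02-fold lower in LT with a log2 ratio of -0.94 in 17kT. Hnf4a (-0.19 and -0.28) and the insulin receptor gene Insr (-0.49 and -0.62) did not reach 2-fold.

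**Figure D5:**
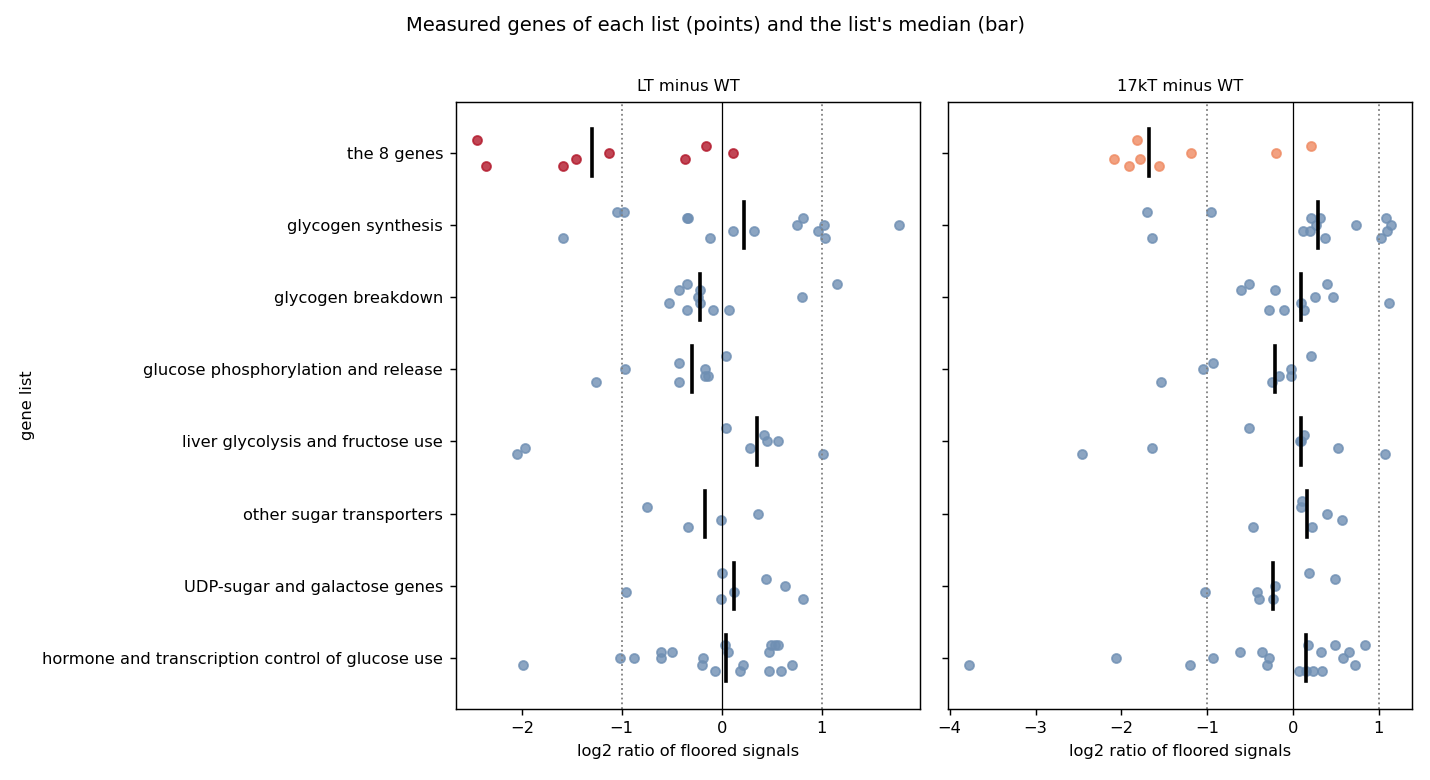
Log2 ratio to WT (x axis) of every measured gene of the 8 genes described and of 7 other lists, 1 point per gene, with the median of each list as a black bar and dotted lines at 2-fold. The medians of the 8 genes lie at -1.30 in LT and -1.68 in 17kT, and those of the other lists lie between -0.30 and 0.35.

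Between the transgenic livers 4 of 72 measured list genes were higher in LT and 1 was lower. These are 5.56% and 1.39% of them, against 4.47% and 4.23% of all genes. Uggt1 was named after its value was seen. Gcgr was 3.46-fold, Uggt1 2.31-fold, Cebpa 2.27-fold and Gyg 2.07-fold higher in LT than in 17kT, and Gaa was 3.13-fold lower. Gcgr, Cebpa and Gaa passed under all 6 scalings, and Gyg and Uggt1 did not. Gcgr missed 2-fold with the floor at the 75th percentile (log2 0.59), and Cebpa when scaled to the hepatocyte markers (log2 0.87). Second probe sets gave log2 ratios of 0.21 for Gyg and -0.13 for Gaa.

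The genes most like 4 of the members were found by the distance between their pairs of log2 ratios (LT against WT, 17kT against WT) over the 3 430A arrays, among 5675 other genes above the floor on all 3. Nearest to Pygl were Agmat, Cyp3a25 and Pklr (distances of 0.06, 0.09 and 0.13), with 9 genes within 0.25. Nearest to Pklr were Cmbl, Pygl and Kyat3 (0.11, 0.13 and 0.15), with 7 genes within 0.25. Gys2 had a common pattern, with 67 genes within 0.25 and Cideb, Rnf103 and Grhpr nearest (0.01, 0.04 and 0.04). The pattern of Slc2a2 was rare, with 3 genes within 0.25. These were Ptgds, Nrep and Osgin1 (0.12, 0.19 and 0.19), of which Ptgds read 722 in LT, 198 in 17kT and 859 in WT.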

How the data were processed

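Each array's table holds 1 linear intensity for each probe set, computed by the authors using MAS5 (the submitters' processing notes name the tool without a version). These deposited intensities already share a target: with 2% trimmed at each end, every 430A array averaged 250.1 and every 430B array 250.0. Settings files were read only for the fluidics station.

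Names came from GEO's platform annotation, updated by gene identifier through the RefSeq table of GRCm38.p6. Of 22690 and 22575 probe sets on 430A and 430B, 20393 and 14674 had 1 symbol, 691 and 245 several and 1606 and 7656 none, and the last 2 kinds and control probe sets were not named. Signals were scaled to a common trimmed mean within each design, floored and put on the log2 scale with Python 3.11.15, numpy 2.4.6 and pandas 2.3.3. A gene was represented by its probe set brightest relative to the floor, with _x_at probe sets used only where there was no other. Genes with both arrays at the floor counted as not measured. The number of arrays limits the precision.

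The members and gene lists were chosen with earlier results of these data known. Of 102 listed genes 86 were analysed here. Named beside the members were list genes past 2-fold, up to 4 each way per list and comparison, 20 others whatever their values, of which 16 were analysed here, and the 3 genes nearest to each of 4 members. The code was tested on simulated arrays. Alternatives covered scaling, floor, rule of size, probe set choice and design, and scaling to hepatocyte markers was added after seeing the data.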

Additional observations from a re-analysis of the deposited data

How the results depend on the processing

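No paired analysis was possible because each genotype has 1 array per design. In 107 of 123 alternative values for the counts and medians of the 8 genes, the count stayed within 1.5 times and the median within the SD over the 100 probe sets of both designs. Some of these alternatives could change little or nothing, so this share overstates how well the values held. The deposited signals already shared a trimmed mean. All 8 genes are represented by 430A probe sets, none of them _x_at or _s_at. Using 430A alone, or leaving those kinds out, thus returned the same medians against WT (-1.30 and -1.68). For LT against WT the count lower was 2 with the hybridisation controls (6.505% of all measured genes lower) and 2 with a 3-fold rule (3.35%). The median was -1.54 when scaled on the probe sets of both designs, -0.69 with the hybridisation controls, -0.99 with the floor as a pseudocount and -0.90 with the hepatocyte markers. For 17kT against WT the median was -0.91 with the hybridisation controls, -1.27 with the pseudocount and -0.96 with the hepatocyte markers, and for LT against 17kT it was -0.30 with the hepatocyte markers. On 430B alone 1 member, Phka2, was measured, with counts of 0 and log2 ratios of 0.031 in LT and 0.38 in 17kT against WT, opposite in sign to the medians, and -0.34 for LT against 17kT, because the other 7 members have no probe set there. Scaling moved the share of called genes that were higher, from 55.2% in LT against WT to 26.9% (probe sets of both designs), 77.3% (hybridisation controls) and 81.7% (hepatocyte markers), and from 53.6% to 38.7%, 77.2% and 90.4% in 17kT against WT. For LT against 17kT it was 51.4%, and 73.2% (median of all probe sets), 24.8% (probe sets of both designs) and 18.1% (hepatocyte markers). With 1 array per genotype, no setting shows how far the genotypes vary between animals.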
